A study of Mus musculus with 15 samples.

Results

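Arrays labelled for doxorubicin were compared with arrays labelled for vehicle after the choice of arrays had been narrowed to those with a high level of Cdkn1a, the gene of p21, a brake on the cell cycle that p53 induces. The brightest Cdkn1a probe had to have a linear signal of at least 1000. By this rule 4 arrays labelled Dox (Dox 1, 3, 4 and 5) and 3 arrays labelled Ctrl (Ctrl 1, 4 and 5) were kept, 7 of the 15 arrays of the series. Each array held RNA of the tibialis anterior (TA) muscle of 1 male C57BL/6 mouse (C57BL/6J in the study's methods) of 8 to 10 weeks, with no transgene or deletion named. The Dox label stands for a single intraperitoneal injection of 15 mg/kg doxorubicin, an anthracycline chemotherapy drug, with muscles taken 20 hours later. The Ctrl label stands for PBS injected in the same way, and the third label, Dox + sACVR2B, for the same doxorubicin after 10 mg/kg of the soluble activin receptor sACVR2B-Fc given 48 hours earlier.

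The labels of these arrays are in doubt. A p53 target stood at a high level in 3 arrays whose mice were labelled as given PBS and at a low level in Dox 2, whose mouse was labelled as given doxorubicin. Every difference below is therefore a difference between arrays labelled Dox and arrays labelled Ctrl, called Dox and Ctrl arrays for short, and none can be read as an effect of doxorubicin. Because Cdkn1a was chosen to be high on both sides, the question is which other genes stood apart between the labels.

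When DNA is damaged, p53 switches on genes that halt the cell cycle, such as Cdkn1a, and its own inhibitor Mdm2. In skeletal muscle, FoxO transcription factors raise ubiquitin ligases such as atrogin-1 (Fbxo32) and MuRF1 (Trim63), which mark muscle proteins for breakdown, while ATF4 drives a stress programme that includes the glutathione-degrading enzyme Chac1. Myostatin and activins, the ligands that sACVR2B-Fc binds, restrain muscle growth through activin receptors.

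No gene passed the test between Dox and Ctrl arrays, and the widest gaps were in few genes. The 4 genes furthest below the Ctrl arrays in mean level were Chac1, a stress enzyme (-3.64 on the log2 scale), Mss51, a muscle gene known to respond to myostatin (-1.70), Fbxo32 (-1.48) and Depp1, a FoxO target (-1.42). The transferrin receptor Tfrc, the water channel Aqp4 and the perinatal myosin Myh8 stood higher in Dox arrays on average. Of 20619 probes above noise, 0 were called higher (0.0%) and 0 lower (0.0%) by limma at an adjusted p under 0.05, and the lowest adjusted p was 0.140. At an unadjusted p under 0.05, 1094 probes (5.31%) were higher and 1160 (5.63%) lower, as were 616 genes (5.5%) and 740 genes (6.6%) of the 11205 these probes represent. The Dox and Ctrl arrays did not overlap for 605 genes higher in Dox arrays (5.4%) and for 633 lower (5.65%). A fold of at least 1.5 was seen in 99 genes above (0.884%) and 134 below (1.2%), and 59 (0.527%) and 71 (0.634%) of these did not overlap. The log2 fold change was above 0 for 5330 genes (47.6%) and below 0 for 5875 (52.4%), with a median of -0.01.

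The count of calls rested on the arrays used, and Dox 3 lay apart from the other 3 Dox arrays along the first principal component. Without Dox 3, limma called 111 probes higher (0.538%) and 119 lower (0.577%) in Dox arrays, which left 75 genes higher (0.669%) and 85 lower (0.759%). The remaining 3 Dox arrays then did not overlap with the Ctrl arrays for 1128 genes above (10.1%) and 1327 below (11.8%). Without Ctrl 5, 0 probes were called higher and 7 lower, and without any other single array no probe was called, as the plot of calls by the array left out shows. Dox 3 was picked out after every array had been left out in turn, and the members of each list called without it are named beside that list. Leaving out an array raises the number of genes that do not overlap, and with each array left out in turn their share over all genes was 6.93% to 10.1% above and 7.0% to 11.8% below. Along the first principal component, with 34.7% of the variance, Dox 1, 4 and 5 lay at 12.6, 16.7 and 25.1 and Dox 3 at -6.78, against -10.3, -28.5 and -8.90 for Ctrl 1, 4 and 5. Over all probes kept, Dox 3 correlated with the other Dox arrays at 0.984 to 0.988 and with the Ctrl arrays at 0.985 to 0.991. Dox 1, 4 and 5 correlated with each other at 0.987 to 0.991 and with the Ctrl arrays at 0.978 to 0.990, so these ranges overlap with those of Dox 3.

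**Figure D1:**
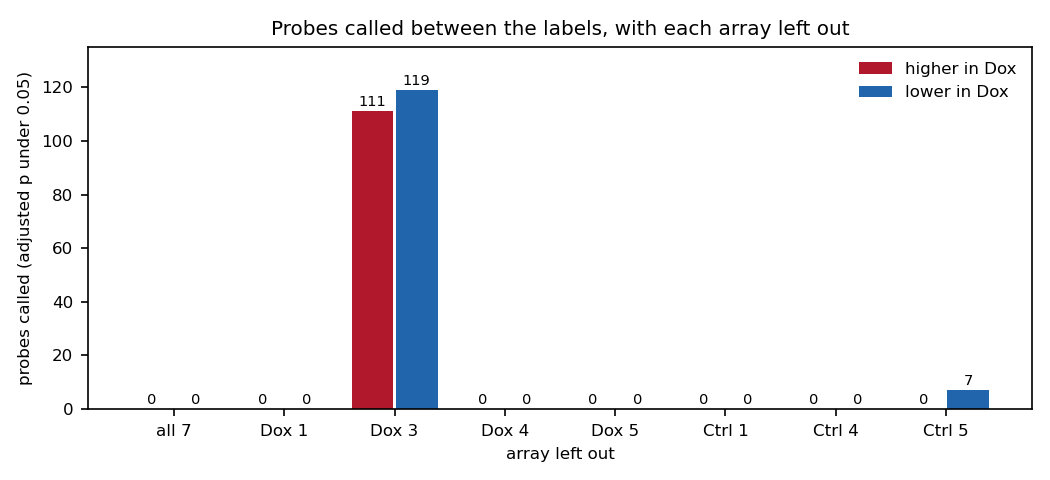
Number of probes called by limma at an adjusted p under 0.05 (vertical axis, probes, higher or lower in Dox arrays) with all 7 arrays and with each array left out in turn (horizontal axis). With all 7 arrays no probe was called, without Dox 3 111 were called higher and 119 lower, and without Ctrl 5 7 were called lower.

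All arrays carried a strong muscle signal. Levels here and below are log2(signal + 50), on which fold changes of dim probes are understated, and all fold changes are Dox over Ctrl. The 10 skeletal muscle identity genes were all measured, among them Ckm, Ttn and Ryr1, and none was apart between the labels. The median log2 fold change of these 10 genes was -0.04. The fast myosin light chain Mylpf lay at 14.50, 14.52, 14.46 and 14.27 in Dox 1, 3, 4 and 5 and at 14.48, 14.78 and 14.55 in Ctrl 1, 4 and 5.

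The gene that chose the arrays is given as a description, with no test. The linear signal of Cdkn1a was 2359, 4013, 3316 and 2694 in Dox 1, 3, 4 and 5 and 4301, 4057 and 4634 in Ctrl 1, 4 and 5. All 4 Dox arrays thus lay below all 3 Ctrl arrays (log2 level 11.59 ± 0.33, SD, n = 4, against 12.10 ± 0.10, SD, n = 3). The array just inside the threshold was Dox 1 at 2359 and the array just outside it was Dox + sACVR2B 5 at 358.8. The 5 arrays below the threshold had signals of 131.6 to 358.8.

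The labels overlapped in 4 other well-known p53 targets. Mdm2, the ubiquitin ligase that removes p53, had levels of 11.25, 12.11, 12.16 and 11.84 in Dox 1, 3, 4 and 5 and of 11.74, 11.99 and 12.09 in the Ctrl arrays. Ccng1, the p53-induced cyclin G1, was nearly level across the 7 arrays, at 13.73 to 14.12 in Dox arrays and 13.86 to 14.02 in Ctrl arrays. Fas, a death receptor, spread more widely within the labels than between them, at 9.35 to 10.83 in Dox arrays and 9.87 to 10.42 in Ctrl arrays. Gtse1, a p53 target that acts in G2 phase, had 7.71, 10.07, 11.19 and 9.01 in Dox 1, 3, 4 and 5 and 9.01, 9.27 and 10.24 in Ctrl 1, 4 and 5. Dox 1 was the lowest and Dox 4 the highest of the 7 arrays in Gtse1, so the Dox label held both ends. The 4 log2 fold changes were -0.10 for Mdm2, -0.02 for Ccng1, -0.01 for Gtse1 and -0.002 for Fas, with adjusted p from 0.903 to 0.999 by limma. For Gtse1 the 95% interval of the fold ran from 0.38 to 2.56, so a difference of 2-fold either way was not detectable with these arrays.

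**Figure D2:**
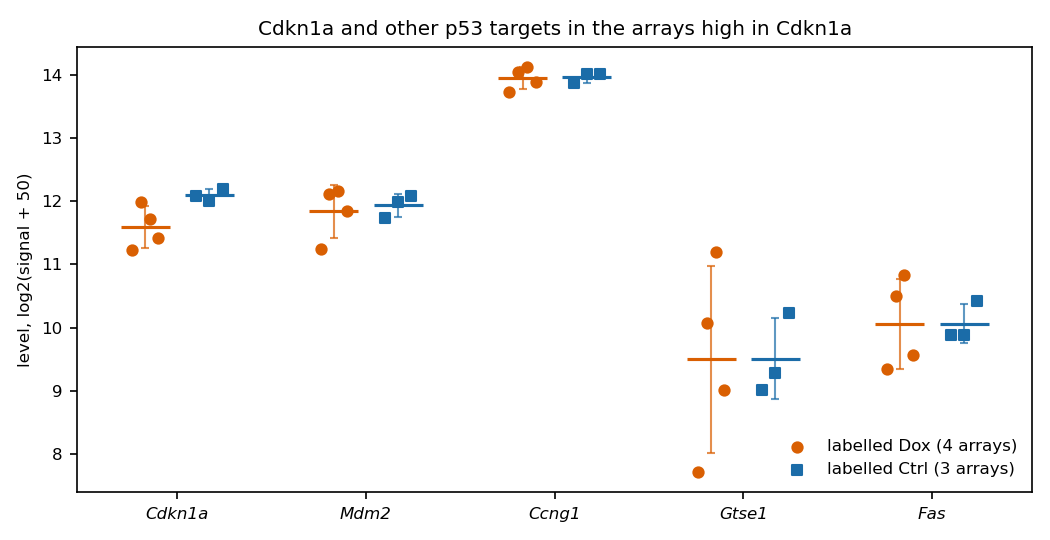
Log2(signal + 50) levels (vertical axis) of Cdkn1a, which chose the arrays, and of 4 other p53 targets in the Dox arrays (left of each pair) and the Ctrl arrays (right), with 1 point per array, the mean and the SD. The Dox arrays lie below the Ctrl arrays in Cdkn1a, and the labels overlap in Mdm2, Ccng1, Gtse1 and Fas.

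Of the 21 measured p53 targets of cell cycle arrest and feedback, 5 had a log2 fold change above 0 and 16 below, with a median of -0.11. Without Dox 1 the split was 11 above and 10 below (median 0.0008). Dox and Ctrl arrays did not overlap for 2 of the 21, 1 above and 1 below, against 5.4% and 5.65% of all genes (1 and 1 without Dox 1, against 7.65% and 7.86%). The 1 below was Cdkn1a, which chose the arrays, and the 1 above was Zmat3, an RNA-binding p53 target, at 9.78, 9.95, 10.60 and 9.79 in Dox arrays and 9.70, 9.48 and 9.74 in Ctrl arrays. Of 10 apoptosis targets 6 were above 0 and 4 below. Of 9 targets in metabolism and stress 1 was above and 8 below. Sesn1 and Ddit4, 2 of these 9, were below without overlap, against 5.65% of all genes. Pmaip1, which encodes the death protein Noxa, was dim and highest in Dox 4, at 7.05, and its labels overlapped. Without Dox 3 none of the p53 targets of arrest or apoptosis was called, whereas Sesn1 and Ddit4, both listed under metabolism and stress, were called lower.

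The genes of muscle wasting and FoxO activity gave some of the clearest gaps. Fbxo32 had levels of 11.11, 12.15, 10.96 and 11.05 in Dox 1, 3, 4 and 5, against 12.60, 12.73 and 13.07 in Ctrl 1, 4 and 5. No Dox array reached the Ctrl arrays, and Dox 3 came nearest to them. The mean was 11.31 ± 0.56 in Dox arrays (SD, n = 4) and 12.80 ± 0.24 in Ctrl arrays (SD, n = 3), a log2 fold change of -1.48 (standard error, SE, 0.25, adjusted p = 0.140 by limma). Its 3 probes ran together, from -1.26 to -1.59. Without Dox 3 the log2 fold change was -1.76 (adjusted p = 0.000433 by limma). In the 5 arrays of the series low in Cdkn1a, Fbxo32 lay between 10.23 and 11.84, below the 3 Ctrl arrays kept here. In Dox + sACVR2B 1, 2 and 3, which were high in Cdkn1a, it was 11.68, 12.77 and 12.08. Dox + sACVR2B 2 thus lay among the Ctrl arrays.

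Klhl38, a muscle gene of the Kelch family that is known to rise in wasting, was lower in each Dox array, at 6.85, 7.37, 6.79 and 6.82, than in the Ctrl arrays, at 7.95, 7.88 and 8.01. Its log2 fold change was -0.99 (SE 0.15, adjusted p = 0.140) and -1.12 without Dox 3 (adjusted p = 0.00193, both by limma). Depp1, a FoxO target that acts on autophagy and peroxisomes, had 9.63, 9.28, 9.95 and 8.79 in Dox arrays and 10.93, 10.80 and 10.78 in Ctrl arrays, a log2 fold change of -1.42. For Depp1, Dox 3 was not nearest to the Ctrl arrays, and the value without it was -1.38 (adjusted p = 0.0272 by limma). Trim63, the partner of Fbxo32 in wasting, overlapped between the labels, at 8.68, 9.37, 8.94 and 8.37 in Dox arrays and 9.11, 9.40 and 9.63 in Ctrl arrays. Foxo1 itself overlapped as well (-0.30, adjusted p = 0.634 by limma).

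No member of any gene list passed with all 7 arrays, so lists are described by their counts. Over the whole list of muscle ubiquitin ligases and FoxO targets, 20 of 25 measured genes lay below 0 and 5 above, with a median of -0.15 against -0.01 over all genes tested. Arrays did not overlap for 5 of the 25 below, against 5.65% of all genes, and for 1 above, against 5.4%. Below were Fbxo32, the F-box gene Fbxo31, the glucocorticoid-induced factor Klf15, the autophagy protein gene Map1lc3b and the translation repressor gene Eif4ebp1, and above was the ligase gene Stub1 (0.26). There were 8 below without overlap when Dox 3 was left out and 9 when Ctrl 1 was, where 11.8% and 9.62% of all genes were below without overlap. When any other array was left out there were 5. Leaving out each array in turn moved the median of this list between -0.21 and -0.11. Asb2, a ligase subunit that limits muscle size, was low in 3 of the 4 Dox arrays. Its levels were 12.37, 13.51, 12.62 and 12.44 in Dox 1, 3, 4 and 5 and 13.42, 13.65 and 13.43 in the Ctrl arrays, with Dox 3 among the Ctrl arrays. Of the list, Fbxo32, Asb2 and Gabarapl1, an autophagosome protein gene, were called lower without Dox 3.

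Chac1, which breaks down glutathione under ATF4, had the widest difference of any gene. It lay at 9.20, 12.18, 7.89 and 7.28 in Dox 1, 3, 4 and 5, against 12.40, 12.82 and 13.12 in Ctrl 1, 4 and 5. Dox 1, 4 and 5 were low and Dox 3 lay close under the lowest Ctrl array. The log2 fold change was -3.64 (SE 0.87, adjusted p = 0.214 by limma), and without Dox 3 it was -4.66 (adjusted p = 0.000605 by limma). No other member of the ATF4 list had a difference of that size. Of 18 measured members 12 lay below 0 and 6 above, with a median of -0.19. Atf4 itself overlapped between the labels (-0.20), as did Asns, which makes asparagine (-0.20), Trib3, a pseudokinase gene induced in stress (-0.33), and Ddit3, the stress factor CHOP (0.32). Arrays did not overlap for 3 of the 18, Chac1, Vldlr (-0.31) and Eif4ebp1 (-0.18), all below, against 5.65% of all genes.

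Genes that brake mTORC1, the kinase complex that drives protein synthesis, were partly lower in Dox arrays. Sesn1, which relays stress and amino acid shortage to mTORC1, had 9.53, 10.03, 9.76 and 9.03 in Dox arrays and 10.14, 10.55 and 10.64 in Ctrl arrays. Its log2 fold change was -0.85 (adjusted p = 0.214) and -0.999 without Dox 3 (adjusted p = 0.0436, both by limma). Ddit4, which encodes the mTORC1 inhibitor REDD1, had 8.68, 9.31, 8.85 and 8.04 in Dox arrays and 9.43, 9.68 and 9.36 in Ctrl arrays. All 4 Dox arrays were below the Ctrl arrays in Ddit4, with Dox 3 the nearest, and the log2 fold change was -0.77 (adjusted p = 0.261) or -0.97 without Dox 3 (adjusted p = 0.0473, both by limma). Of 19 brakes and growth genes measured, 11 lay below 0 and 8 above. Arrays did not overlap for 6 below and 1 above, against 5.65% and 5.4% of all genes. Besides Sesn1 and Ddit4, those below were Tsc1, Flcn, the arginine sensor gene Castor1 and Eif4ebp1. Deptor, another inhibitor of mTORC1, was above (0.40), although its second probe had -0.03.

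The promoters of 3 of these genes are shown because each gene is known as a target of the factor whose motif it holds: Chac1 of ATF4, Sesn1 and Trim63 of FoxO factors. The sequences are those of RefSeq on build GRCm38.p6, 300 bases each from 250 before to 50 after the start site on the + strand, 5′ to 3′, at chr2:119350992-119351291 for Chac1, chr10:41810324-41810623 for Sesn1 and chr4:134314870-134315169 for Trim63. Capitals mark the only match in each to the C/EBP-ATF motif TGATGCAA (Chac1) or the FoxO motif GTAAACA (Sesn1, Trim63), which were searched on both strands and here read on the other strand.
Chac1: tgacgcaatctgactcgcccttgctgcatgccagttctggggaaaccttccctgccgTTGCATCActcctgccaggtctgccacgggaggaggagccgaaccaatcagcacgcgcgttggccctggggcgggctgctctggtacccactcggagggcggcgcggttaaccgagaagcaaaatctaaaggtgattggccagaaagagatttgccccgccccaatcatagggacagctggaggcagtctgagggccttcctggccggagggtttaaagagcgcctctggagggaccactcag
Sesn1: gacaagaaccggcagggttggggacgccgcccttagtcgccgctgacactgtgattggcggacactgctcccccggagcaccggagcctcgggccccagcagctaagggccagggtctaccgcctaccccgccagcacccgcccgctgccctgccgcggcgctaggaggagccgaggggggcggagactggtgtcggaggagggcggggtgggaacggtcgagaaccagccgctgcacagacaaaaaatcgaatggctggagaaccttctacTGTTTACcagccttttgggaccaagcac
Trim63: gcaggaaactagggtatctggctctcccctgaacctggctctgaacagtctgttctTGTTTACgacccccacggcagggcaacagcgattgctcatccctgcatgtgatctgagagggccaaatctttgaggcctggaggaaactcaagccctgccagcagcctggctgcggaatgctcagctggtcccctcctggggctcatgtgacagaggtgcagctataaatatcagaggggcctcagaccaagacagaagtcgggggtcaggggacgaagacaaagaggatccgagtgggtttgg
The match began 193 bases before the start site in Chac1, 194 before it in Trim63, and 22 after it in Sesn1, where it was in 1 of 2 promoters listed for the gene. TGATGCAA was found in 294 of 32851 promoters of that length (0.895%), and in those of Atf3, Chac1, Nupr1 and Vldlr, 4 of the 16 ATF4 list genes with a promoter. GTAAACA was found in 1199 promoters (3.65%) and in those of Mdm2, Trim63 and Txnip, 3 of 21 genes of the FoxO list. The shares count promoters, while the lists count genes with a match in any of their promoters, so the 2 are not of like units. Such a match describes letters only. All 3 genes were picked after their values were seen, and Trim63, with the motif, overlapped between the labels.

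Hormone-responsive and autophagy genes leaned the same way, but the lists share members and are not independent. Ddit4 is in the glucocorticoid and mTORC1 lists and among the p53 targets of metabolism and stress. Gabarapl1 is in the FoxO and autophagy lists, and Eif4ebp1 in the FoxO, ATF4 and mTORC1 lists. Of 28 measured glucocorticoid response genes, 23 lay below 0 and 5 above (median -0.19), and 7 were below without overlap, against 5.65% of all genes. Sult1a1, a sulfotransferase gene, had 10.45, 11.11, 10.18 and 9.67 in Dox arrays and 11.40, 11.50 and 11.33 in Ctrl arrays, a log2 fold change of -1.06 (adjusted p = 0.214) and -1.31 without Dox 3 (adjusted p = 0.0109, both by limma). Tsc22d3, the glucocorticoid-induced leucine zipper, differed less but with little spread, at 12.50 to 12.73 in Dox arrays and 12.92 to 13.11 in Ctrl arrays. Fkbp5, a co-chaperone of the glucocorticoid receptor, lay below as well (-0.44). Of 34 autophagy and lysosome genes, 27 lay below 0 and 7 above, with a median of -0.15, and 9 were below and 2 above without overlap, against 5.65% and 5.4% of all genes. Without Ctrl 1, 14 were below without overlap, against 9.62% of all genes. This was the highest count, which ran from 10 to 14 with each array left out in turn. Map1lc3b, which encodes an LC3 protein of the autophagosome, had 10.49 to 10.94 in Dox arrays and 10.95 to 11.46 in Ctrl arrays. Ulk1, the kinase that starts autophagy, overlapped between the labels (-0.51), and Becn1 was nearly equal in both (0.03).

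**Figure D3:**
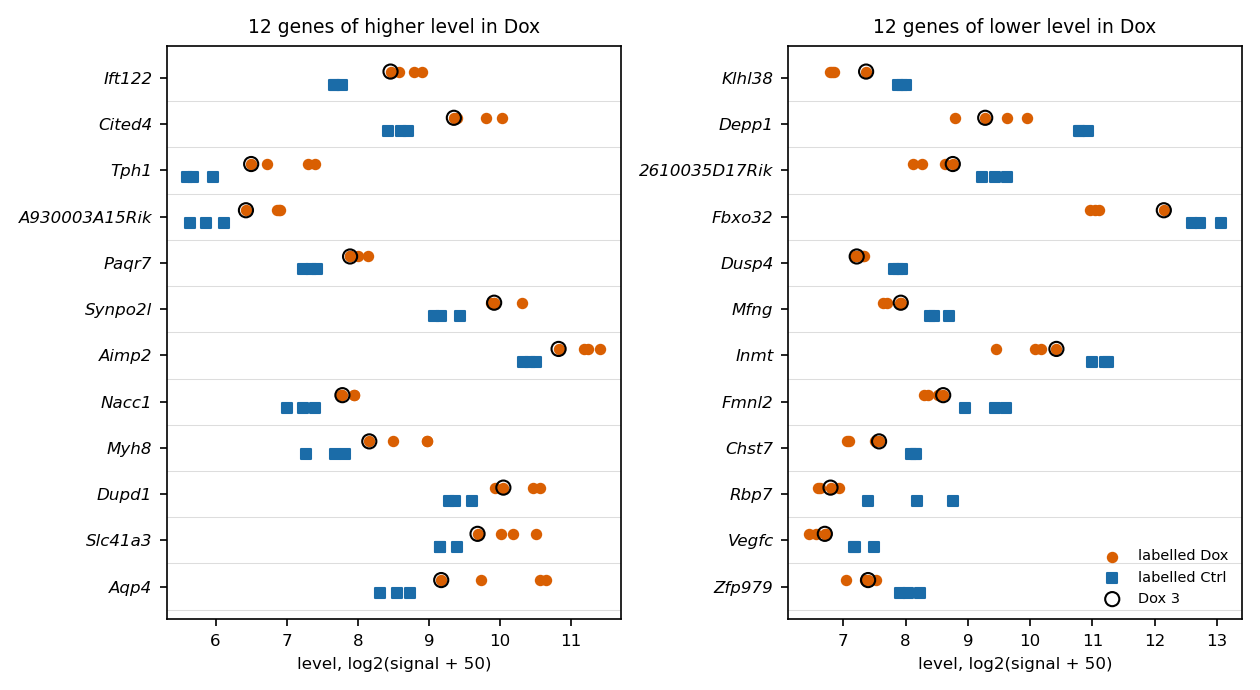
Log2(signal + 50) levels (horizontal axis) of the 24 genes with the lowest unadjusted p among those whose arrays did not overlap, 12 higher and 12 lower in Dox arrays, with Dox arrays in orange, Ctrl arrays in blue and Dox 3 ringed. In every row the 4 Dox points lie on one side of the 3 Ctrl points.

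The 12 genes higher in Dox arrays with the smallest p came from unlike functions, and none passed. The smallest p was that of Ift122, a ciliary transport gene, at 8.79, 8.46, 8.90 and 8.58 in Dox 1, 3, 4 and 5 and 7.67, 7.68 and 7.77 in Ctrl 1, 4 and 5. Its log2 fold change was 0.97 (SE 0.13, adjusted p = 0.140), and 1.05 without Dox 3 (adjusted p = 0.00613, both by limma). In the arrays low in Cdkn1a, Ift122 lay at 8.14 to 9.05, beside the Dox arrays. Tph1, which makes serotonin from tryptophan, was dim in all arrays, at 6.72, 6.50, 7.41 and 7.30 in Dox arrays and 5.69, 5.61 and 5.96 in Ctrl arrays (1.23). Cited4, a transcriptional co-regulator, had 9.39, 9.35, 10.02 and 9.80 in Dox arrays and 8.71, 8.61 and 8.42 in Ctrl arrays (1.06). These 2 genes, like Ift122, kept Dox 3 with the other Dox arrays.

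Some more of the genes higher in Dox arrays belong to muscle fibres. Myh8, the perinatal myosin heavy chain, had 8.49, 8.16, 8.98 and 8.97 in Dox arrays and 7.68, 7.82 and 7.27 in Ctrl arrays (1.06, adjusted p = 0.172 by limma). Myh8 was as variable over the rest of the series, from 7.06 in Dox 2 to 9.50 in Dox + sACVR2B 5. Synpo2l, a sarcomere protein gene, lay at 9.88 to 10.31 in Dox arrays and 9.07 to 9.44 in Ctrl arrays (0.78). Aqp4, the water channel of fast fibres, had 10.56, 9.17, 9.73 and 10.65 in Dox arrays and 8.74, 8.31 and 8.55 in Ctrl arrays (1.49), but its other probe had -0.13, so the 2 probes of Aqp4 differ in sign. Aimp2, of the tRNA synthetase complex, was higher on both of its probes (0.74 and 0.68), and Slc41a3, of a magnesium transporter family, on both of its own (0.87 and 0.67). Dupd1, a muscle phosphatase gene (0.83), Paqr7, a membrane progestin receptor gene (0.66), and the unnamed transcript A930003A15Rik (0.89) made up the list with Nacc1, a transcriptional co-repressor, whose second probe had 0.10 against 0.65. All 12 were called higher without Dox 3, with adjusted p from 0.00613 to 0.0444 by limma, against 0.669% of all genes. They were chosen by small p and no overlap on these same arrays, so the calls are no separate support.

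The genes lower in Dox arrays included Rbp7 and Vegfc, both linked to vessels. Rbp7, a retinol-binding protein gene of fat and endothelium, had 6.93, 6.80, 6.62 and 6.60 in Dox arrays, against 8.19, 8.77 and 7.39 in Ctrl arrays (-1.38). The Dox arrays lay close together in Rbp7 and the Ctrl arrays were spread over more than 1 log2 unit, with Ctrl 5 the lowest. Vegfc, a growth factor of lymphatic vessels, had 6.45 to 6.73 in Dox arrays and 7.18 to 7.50 in Ctrl arrays (-0.68). Inmt, a methyltransferase gene, lay at 9.46 to 10.42 in Dox arrays and 10.99 to 11.26 in Ctrl arrays (-1.12). Mfng, which modifies Notch receptors (-0.72), Dusp4, a MAP kinase phosphatase gene (-0.62), and Fmnl2, a formin gene (-0.89), were each lower on the probe used, but on their other probes the log2 fold changes were -0.19 for Mfng, -0.36 and 0.13 for Dusp4 and -0.17 for Fmnl2. Chst7, a sulfotransferase gene (-0.82), Zfp979 (-0.73) and the unnamed transcript 2610035D17Rik (-0.99) completed the 12. All 12 were called lower without Dox 3, with adjusted p from 0.000433 to 0.0445 by limma, against 0.759% of all genes. They too were chosen on these same arrays, so the calls are no separate support.

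Most endothelial markers also had a lower mean in Dox arrays, with 19 of 24 genes below 0, 5 above and a median of -0.30. With all 7 arrays, Tek and Esam, an angiopoietin receptor gene and an endothelial adhesion gene, were the 2 of 24 that did not overlap, both below, against 5.65% of all genes. That count depended on the arrays used, and it stayed at 2 or 3 below without Dox 1, Dox 5, Ctrl 1 or Ctrl 4. Without Dox 3 it was 10 below and 2 above, where 11.8% and 10.1% of all genes did not overlap, without Ctrl 5 it was 12 below and 1 above (11.3% and 8.46% of all genes), and without Dox 4 it was 5 below and 0 above (7.68% and 7.64%). Called lower without Dox 3 were Ptprb, a phosphatase gene of endothelium, the water channel gene Aqp1, the nitric oxide synthase gene Nos3 and the guidance receptor gene Robo4, with log2 fold changes of -0.85, -0.75, -0.87 and -0.82 and adjusted p from 0.0179 to 0.0443 by limma. With all 7 arrays these 4 overlapped between the labels, and in each the highest Dox array was Dox 3 and the lowest Ctrl array Ctrl 5. Esam had 10.98, 11.07, 10.78 and 10.66 in Dox arrays and 11.56, 11.73 and 11.24 in Ctrl arrays (-0.64, adjusted p = 0.208 by limma). The markers did not move evenly, as Pecam1 had -0.22, Cdh5 -0.55 and Kdr, a dim probe, 0.06. Notch4, an endothelial Notch receptor chosen after its values were seen, had 9.77, 9.91, 9.50 and 9.19 in Dox arrays and 10.78, 11.01 and 10.23 in Ctrl arrays (-1.08). Esm1, a gene of sprouting endothelium chosen in the same way, had 6.49 to 6.82 in Dox arrays and 8.43, 8.46 and 7.07 in Ctrl 1, 4 and 5 (-1.38), so its difference rested mainly on Ctrl 1 and Ctrl 4. The summed signal of the endothelial list ran from 35282 to 43116 in Dox arrays and from 41624 to 54275 in Ctrl arrays, with overlap. Here and for every other cell type, fewer cells of a type in the muscle and less RNA per cell cannot be told apart.

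Macrophage and monocyte markers lay on the other side. Of 23 measured, 21 had a log2 fold change above 0 and 2 below, with a median of 0.34, and 6 were above without overlap against 5.4% of all genes. The chemokine genes Ccl7, Ccl6 and Ccl9, the complement genes C1qb and C1qc and the mannose receptor gene Mrc1 were these 6. Their number was 11 without Ctrl 4, where 8.81% of all genes were above without overlap. This was the highest count, which ran from 6 to 11 with each array left out in turn. Ccl9 had 8.92, 9.13, 8.33 and 8.18 in Dox 1, 3, 4 and 5 and 7.49, 8.02 and 7.98 in Ctrl arrays (0.81). Ccl7 had 6.73, 6.44, 6.92 and 6.54 in Dox arrays and 5.93, 6.05 and 6.06 in Ctrl arrays (0.65), and it was called higher without Dox 3 (adjusted p = 0.0308 by limma). Dox 1 and Dox 3 carried most of the list's signal: its sum was 13760, 11179, 6975 and 6615 in Dox 1, 3, 4 and 5 and 5489, 7471 and 5939 in Ctrl 1, 4 and 5. The median of the list stayed above 0, at 0.20 to 0.46, when each array was left out. The part of these cell types in the other differences was not tested.

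Most interferon-induced genes had a lower mean in Dox arrays, with 27 of 30 below 0, 3 above and a median of -0.22. Arrays did not overlap for 7, all below, against 5.65% of all genes. This count was 14 without Dox 3 and 13 without Ctrl 4, where 11.8% and 8.94% of all genes were below without overlap. Without any other array it was 7 or 8. Bst2, which tethers viruses, had 7.17, 7.75, 7.41 and 6.85 in Dox arrays and 7.90, 8.01 and 8.53 in Ctrl arrays (-0.85, adjusted p = 0.214 by limma). B2m, the light chain of MHC class I, had 11.90 to 12.19 in Dox arrays and 12.42 to 12.55 in Ctrl arrays (-0.41). Oasl2, Rsad2 and Cxcl9, all induced by interferons, lay below as well (-0.69, -0.55 and -0.60). Bst2 and Oasl2 were called lower without Dox 3. The summed signal of the 30 genes was 18805 to 23634 in Dox arrays and 24296 to 25474 in Ctrl arrays, without overlap, and the median moved between -0.34 and -0.13 with each array left out.

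**Figure D4:**
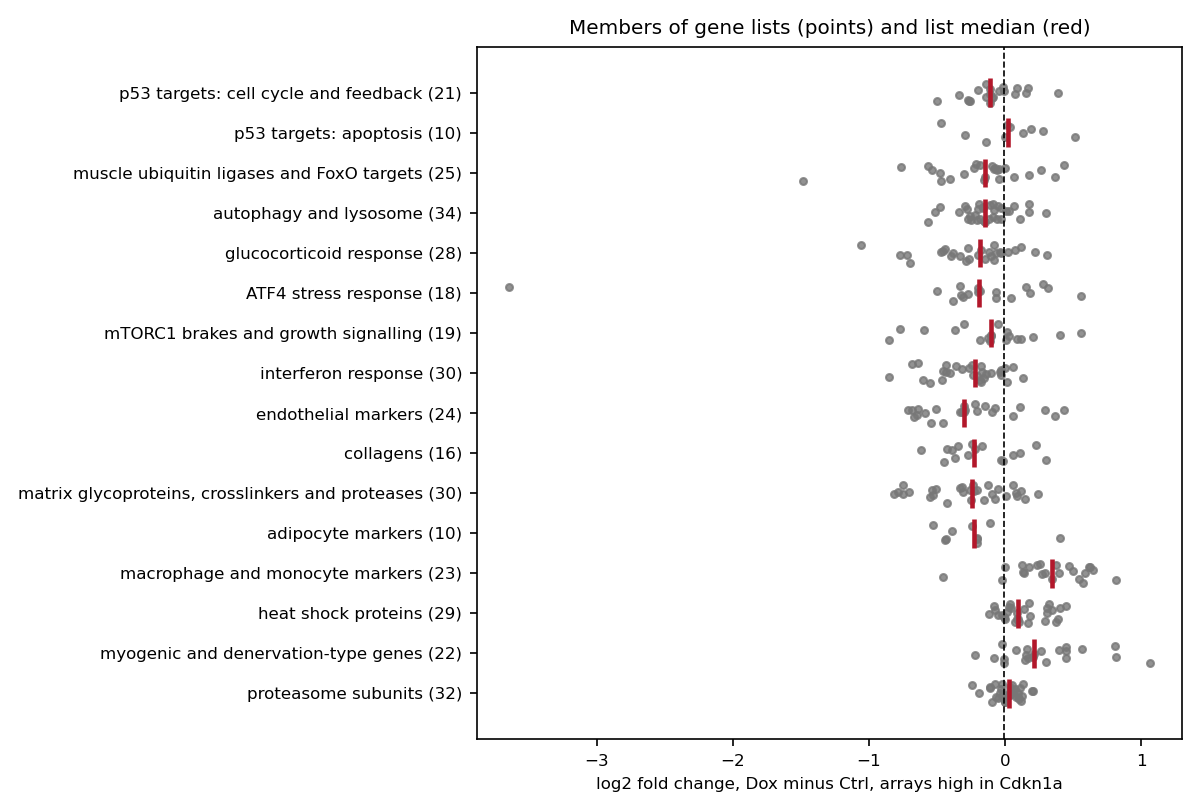
Log2 fold changes, Dox over Ctrl (horizontal axis), of the measured members of 16 gene lists, with 1 point per gene, the list median as a red mark and the median of all genes tested as a dashed line. The macrophage median lies at 0.34 and the endothelial median at -0.30, and no point passed the test.

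Genes of fat and matrix mostly had lower means in Dox arrays. Of 10 adipocyte markers 9 lay below 0, with a median of -0.23, and their summed signal was 28022 to 32302 in Dox arrays against 32433 to 33559 in Ctrl arrays. Of 11 erythrocyte and iron genes 7 were below 0 and 4 above, Tfrc among these, and none was apart. The summed signal of the 11 was 52568 to 57937 in Dox arrays and 50838 to 54184 in Ctrl arrays, with overlap. The haemoglobin gene Hba-a1 had 11.59, 12.85, 12.02 and 12.24 in Dox 1, 3, 4 and 5 and 12.85, 13.31 and 13.05 in Ctrl arrays (-0.89), with Dox 3 level with Ctrl 1. Without Dox 3, Hba-a1 and Alas2, the erythroid enzyme that starts haem synthesis, were called lower (-1.12 and -0.87, adjusted p = 0.0193 and 0.0333 by limma). Globin genes come in near-identical copies, so the probe may read more than 1 of them. Of 16 collagens 12 were below 0 (median -0.23), and of 30 other matrix genes 23 (median -0.24). Of these 30, 3 were below without overlap (Tnc, Timp1 and Ccn1), against 5.65% of all genes, and 11 without Dox 3, against 11.8%. Lox, which crosslinks collagen and elastin, was called lower without Dox 3 (-0.9966, adjusted p = 0.0444 by limma), while Dox 3, at 9.22, lay among the Ctrl arrays, at 9.17, 9.28 and 9.23. Ccn1, a matrix signalling protein gene, had 8.34, 8.27, 8.21 and 7.48 in Dox arrays and 8.65, 8.84 and 9.10 in Ctrl arrays (-0.79), and Mgp, an inhibitor of calcification, had 11.17 to 12.04 in Dox arrays and 12.33 to 12.71 in Ctrl arrays (-0.78). Fibroblast markers, Mgp among them, were split, with 10 of 18 list members above 0, 8 below and a median of 0.03. At an unadjusted p under 0.05 by limma, 3 of the 18 were lower and 1 higher, against 6.6% and 5.5% of all genes.

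Most chaperones and genes seen in denervated muscle had a slightly higher mean in Dox arrays. Of 29 heat shock proteins 22 were above 0 and 7 below (median 0.09), and 5 were above without overlap, against 5.4% of all genes. Without Dox 3, 8 were above without overlap, against 10.1% of all genes. Hspb2, a small heat shock protein gene of muscle, had 9.23 to 9.43 in Dox arrays and 8.80 to 8.91 in Ctrl arrays (0.45). Cryab, the alpha-B-crystallin gene, had 12.64 to 12.90 in Dox arrays and 12.31 to 12.48 in Ctrl arrays (0.41). Of 22 myogenic and denervation-type genes 17 were above 0 and 5 below (median 0.21). Arrays did not overlap for 3 of the 22, all above, against 5.4% of all genes. These were Myh8 and the genes Dok7 and Rapsn, both of the neuromuscular junction (0.39 and 0.30). Proteasome subunits were balanced, with 18 of 32 above 0, 14 below, a median of 0.03 and none apart. In ribosome biogenesis 20 of 36 had a log2 fold change above 0 and 16 one below it (median 0.03). Above without overlap were 5, Nop56, Nop58, Rrn3, Rrp9 and Noc4l (0.43, 0.45, 0.45, 0.19 and 0.17), against 5.4% of all genes, and below was Ubtf (-0.16). Without Ctrl 4, 9 were above and 3 below without overlap, against 8.81% and 8.94% of all genes. Without any other array 5 to 7 were above and 1 to 4 below. The summed signal of the 36 was 25376 to 26235 in Dox arrays and 24383 to 25257 in Ctrl arrays, without overlap.

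Genes of myostatin and activin signalling had log2 fold changes from -0.40 to 0.30, and none passed. Of 16 measured, 12 lay below 0 and 4 above, with a median of -0.07. Acvr2b, the receptor from which sACVR2B-Fc is made, had 9.95, 10.04, 9.71 and 9.60 in Dox arrays and 10.11, 10.11 and 10.09 in Ctrl arrays (-0.27, adjusted p = 0.464 by limma). Arrays did not overlap for 3 of the 16 below and 1 above, against 5.65% and 5.4% of all genes. Those below were Acvr2b, Ltbp3, which holds latent TGF-beta (-0.32), and the protease gene Furin (-0.12), and Smad3 lay above (0.26). Without Dox 3, 6 of the 16 were below and 2 above without overlap, against 11.8% and 10.1% of all genes. Without any other array 3 or 4 were below. Acvr1, a BMP receptor gene, had 8.74, 9.19, 8.93 and 8.98 in Dox arrays and 9.40, 9.52 and 9.58 in Ctrl arrays, with -0.54 over all arrays and -0.62 without Dox 3 (adjusted p = 0.213 and 0.0418 by limma). In IGF signalling, Igfbp3, an IGF-binding protein gene, was lower in Dox arrays, at 7.28, 7.92, 7.10 and 6.98 against 8.62, 8.92 and 7.96 in Ctrl arrays (-1.18), and was called lower without Dox 3. Igf1r had -0.31 on its brightest probe and 0.09 and 0.20 on the other 2, so no direction is given.

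Dox 3 lay with the Ctrl arrays in the genes that separated the other Dox arrays from them. Of the 160 genes called without Dox 3, its level was nearer to the mean of the other 3 Dox arrays for 29 (18.1%) and nearer to the Ctrl mean for 131, while over all genes it was nearer to the Dox mean for 44.2%. Those genes were called on the other 6 arrays and not on Dox 3. But Dox 3 was singled out because calls rose without it, so a low share in Dox 3 follows partly from that choice. The share over all genes is no like reference for genes chosen in this way, and both are given as a description. Tfrc, which takes up iron-loaded transferrin, had 12.62, 10.62, 12.73 and 12.86 in Dox 1, 3, 4 and 5 and 10.94, 10.64 and 10.39 in Ctrl 1, 4 and 5. Dox 1, 4 and 5 were thus far above the Ctrl arrays and Dox 3 was among the Ctrl arrays. The log2 fold change was 1.55 (adjusted p = 0.227) and 2.08 without Dox 3 (adjusted p = 0.000393, both by limma), and the second probe had 1.52. Casq2, the calsequestrin of slow fibres, had 9.51, 8.10, 9.65 and 9.42 in Dox arrays and 8.47, 8.39 and 7.99 in Ctrl arrays. Ankrd2, a stretch-responsive muscle gene, had 10.70, 9.48, 10.49 and 10.68 in Dox arrays and 9.55, 9.61 and 9.42 in Ctrl arrays. Both were called higher without Dox 3, and in both Dox 3 lay inside the range of the Ctrl arrays.

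**Figure D5:**
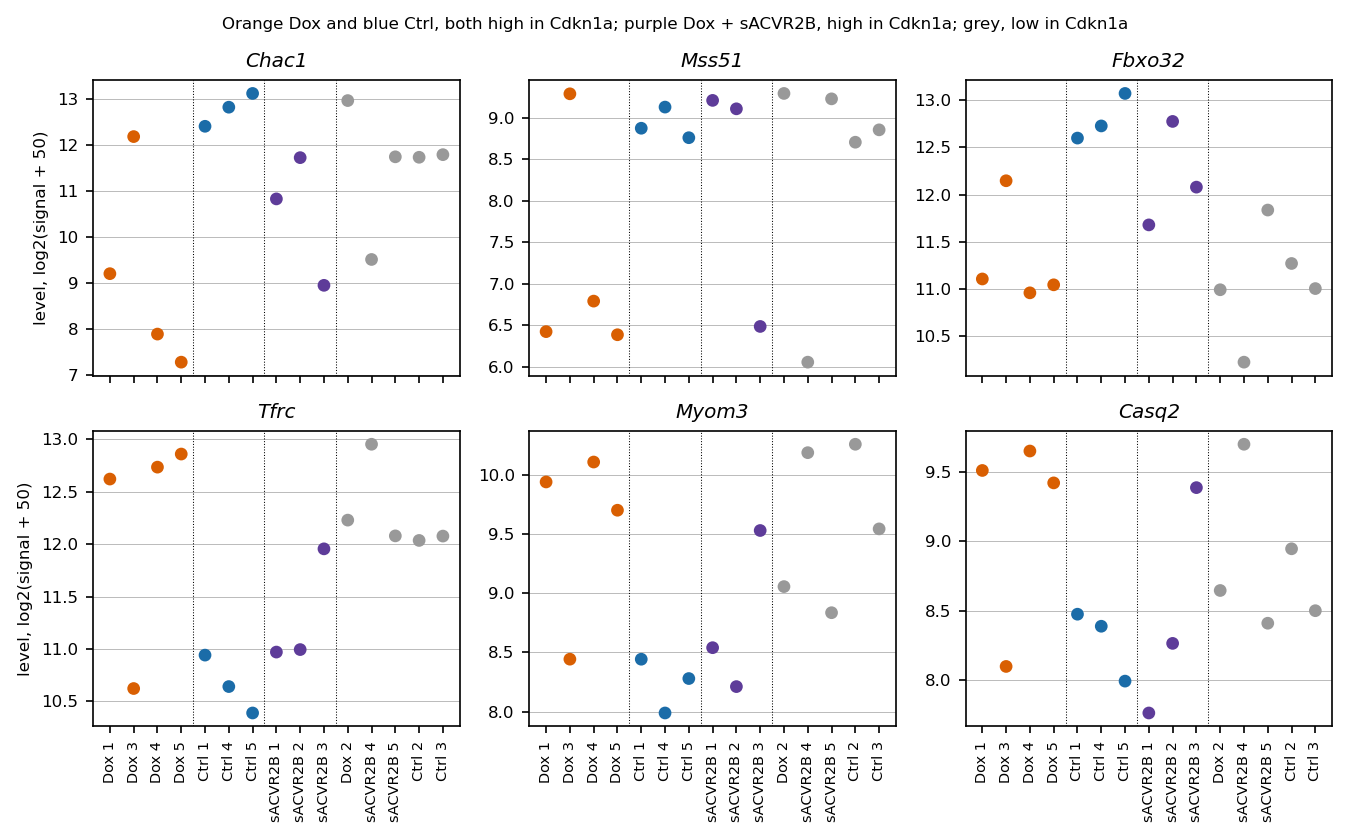
Log2(signal + 50) levels (vertical axes) of Chac1, Mss51, Fbxo32, Tfrc, Myom3 and Casq2 in all 15 arrays, with Dox arrays in orange, Ctrl arrays in blue, Dox + sACVR2B arrays high in Cdkn1a in purple and the arrays low in Cdkn1a in grey. Dox 3 lies nearer to the Ctrl arrays than Dox 1, 4 and 5 do in each gene, and in Mss51 5 arrays stand at 6.06 to 6.79 and 10 at 8.70 to 9.29.

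A few genes chosen after their values were seen took 2 separate levels over the whole series. Mss51, a muscle gene known to respond to myostatin, had 6.42, 9.29, 6.79 and 6.39 in Dox 1, 3, 4 and 5 and 8.87, 9.13 and 8.76 in Ctrl 1, 4 and 5. Over all 15 arrays its widest gap put Dox 1, 4 and 5 and Dox + sACVR2B 3 and 4 at 6.06 to 6.79 and the other 10 arrays at 8.70 to 9.29, with nothing between. The log2 fold change of Mss51 was -1.70 with Dox 3 (adjusted p = 0.298) and -2.38 without it (adjusted p = 0.00024, both by limma). The same 5 arrays lay on one side of the widest gap for Chac1, at 7.28 to 9.51 against 10.82 to 13.12 in the other 10, and for Ddah1, which clears inhibitors of nitric oxide synthase, at 6.76 to 7.20 against 8.18 to 9.10. They were the high arrays for Casq2, at 9.39 to 9.70 against 7.76 to 8.95, and for Car14, a membrane carbonic anhydrase gene, at 10.59 to 10.85 against 9.34 to 9.83. Aph1a, a gamma-secretase subunit gene, divided the arrays in this way too, at 10.13 to 10.45 in the 5 arrays and 9.03 to 9.40 in the other 10.

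This division of the arrays did not follow Cdkn1a. Dox 1, 4 and 5 and Dox + sACVR2B 3 were high in Cdkn1a, and Dox + sACVR2B 4 was low. Nor did it follow the label, as Dox 3 and Dox + sACVR2B 1, 2 and 5 were on the side of all 5 Ctrl arrays and of Dox 2. Of the 160 genes called without Dox 3, the level was nearer to the mean of Dox 1, 4 and 5 for 81.2% in Dox + sACVR2B 3 and for 85.0% in Dox + sACVR2B 4, which compares with 58.0% and 55.5% over all genes. In Dox + sACVR2B 1 and 2 the share was 21.9% and 14.4%. The remaining arrays lay between, with 44.4% in Ctrl 2, 38.8% in Ctrl 3, 37.5% in Dox 2 and 48.1% in Dox + sACVR2B 5. As for Dox 3, the share over all genes is no like reference for genes chosen in this way. These shares are given as a description of single arrays, no test was made between the sides, and what sets them apart was not tested. Tfrc took a different course, as the arrays low in Cdkn1a, at 12.04 to 12.95, all lay with the high ones. Myom3, an M-band protein gene, was likewise high in Dox 1, 4 and 5, at 9.94, 10.11 and 9.70, and low in Dox 3, at 8.44, against 8.44, 7.99 and 8.28 in Ctrl arrays.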

How the data were processed

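RNA of TA muscle had been measured on Illumina mouse bead arrays, 1 array per mouse. The deposited file holds linear signal intensities. The authors had subtracted background (34.0% of the intensities are below 0) and made the 15 arrays alike by quantile normalization, which left differences of at most 0.5 at any rank. A further 30 columns of values not normalized, named for no sample label, were not used here. Of 45281 probes, 34885 had 1 gene in the platform annotation, 18 several and 10378 none, and 34807 were found in the reference annotation.

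Arrays labelled Dox or Ctrl with a Cdkn1a signal of at least 1000 were kept. Levels are log2 of the signal plus 50. Probes above a noise threshold of 12.4 (1.645 times a noise SD of 7.52, from the negative values) in at least 3 of the 7 arrays were tested with limma (version 3.58.1 in R 4.3.3), two-sided, by a linear model on the label with moderated statistics and Benjamini-Hochberg adjustment over all 20619 kept probes. The probe with the highest mean signal stood for its gene. The p-values measure the spread between these arrays of 1 mouse each, and the number of arrays limits the precision. For a single gene outside such a model, 4 arrays against 3 allow no two-sided exact permutation p below 0.0571.

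The arrays, genes and lists were chosen with earlier results of these data known. The named genes were the 12 of smallest p in each direction whose arrays did not overlap (no gene was called), 11 given genes (Cdkn1a, Mdm2, Ccng1, Gtse1, Fas, Fbxo32, Trim63, Foxo1, Ddit4, Ulk1 and Becn1), and the 2 members of smallest p of each gene list (41 lists), 109 genes in all. Other genes were chosen after their values were seen: list members, by whether their arrays overlapped, and Mss51, Myom3, Ddah1, Car14, Aph1a, Notch4 and Esm1. Promoters came from RefSeq (GRCm38.p6), with 90 of the 109 genes listed there. The procedure was tested on simulated data. Alternatives were other offsets and filters, cyclic loess, array weights, a trended and robust prior, a test without moderation, other sets of arrays, the Cdkn1a level as a covariate, the median over probes, the replicate number as a block and leaving out each array. The gene lists with each array left out, and the arrays named for them, were chosen after seeing the data, mostly for the largest counts. Tables were made with Python 3.11.15 and pandas 2.3.3, and plots with matplotlib 3.10.9.

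The numbers in the labels were tested for pairing. The deviations of Dox and Ctrl arrays of the same number correlated at 0.12, -0.02 and 0.02, and those of unlike number at -0.15 to 0.13. These values gave no sign of pairing, but so few pairs, with labels in doubt, cannot exclude it.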

Additional observations from a re-analysis of the deposited data

Results flagged for a closer look

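In 9 of 109 named genes, 1 of the 4 Dox arrays stood apart from the other 3: its gap to the nearest of them, divided by the range of all 4, was above Dixon's 95% value. Chance alone would single out an array in about 1 in 20 groups. In 7 of the 9 genes that array was Dox 3 and in 2 it was Dox 5, and neither Dox 1 nor Dox 4 stood apart in any.

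Dox 3 was the highest in Fbxo32, at 12.15, in Klhl38, at 7.37, and in the calcium release channel gene Ryr1, at 14.15. It was the lowest in Tfrc, at 10.62, in Casq2, at 8.10, in the transcript A930003A15Rik, at 6.43, and in Slc7a2, a transporter of cationic amino acids, at 9.61. In all 7 genes this put Dox 3 nearer to the mean of the Ctrl arrays than Dox 1, 4 and 5. Dox 5 was the highest in Synpo2l, at 10.31, and the lowest in Ccn1, at 7.48, on the far side from the Ctrl arrays in both. What set these arrays apart was not tested.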

How the results depend on the processing

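All directions rest on labels that are in doubt, on 7 arrays and on a fit that called no probe, so a value that did not pass is no evidence of a small difference. With no filter, limma called 5 probes higher and 8 lower in Dox arrays, with array weights 14 and 16, and without a single array 0 to 111 higher and 0 to 119 lower. The highest counts came without Dox 3, and without Ctrl 5 0 were called higher and 7 lower. With the replicate number as a block, 119 probes were called higher and 118 lower. Dox 3 has no partner of its number and adds nothing to that fit, and 182 of its 237 calls were also made without Dox 3. The other alternatives called no probe.

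Of the 108 named genes other than Cdkn1a, 94 kept their direction in every alternative and 14 did not. Cdkn1a chose the arrays and did not overlap between the labels, so in the model with its level as a covariate, its share and that of the label cannot be told apart. Some genes that kept their direction had smaller log2 fold changes there. These went from 1.55 to 0.32 for Tfrc, 0.89 to 0.06 for Casq2 and 0.81 to 0.05 for Ankrd2. For Chac1 the change was from -3.64 to -1.65, for Fbxo32 from -1.48 to -0.84 and for Ddit4 from -0.77 to -0.26. Others changed little, such as Depp1 (-1.37) and Cited4 (1.03), or grew, such as Rbp7 (-1.62). In that model the log2 fold change was 0.45 for Mdm2, 0.20 for Ccng1, 1.81 for Gtse1, 0.96 for Fas, 0.0185 for Trim63, 0.23 for Foxo1, 0.19 for Ulk1, 0.19 for Psme4 and 0.17 for Mbp. With the Cdkn1a state as a term over the 10 Dox and Ctrl arrays it was 0.0233 for Ccng1, 0.10 for Fas, -0.0239 for Tnnt1, 0.0018 for Mbp and 0.30 for Adipoq. With the median over probes it was 0.18 for Ccng1, 0.20 for Gtse1, 0.0626 for Fas, -0.0687 for Becn1, 0.16 for Igf1r, 0.14 for Mbp and -0.0334 for Cycs. An offset of 100 gave 0.021 for Gtse1 and 0.0033 for Fas. Array weights gave -0.0596 for Becn1 and the replicate block -0.0193. Without each array in turn the value ran from -0.20 to 0.10 for Mdm2, -0.0742 to 0.0549 for Ccng1, -0.58 to 0.58 for Gtse1, -0.26 to 0.24 for Fas and -0.0777 to 0.0821 for Becn1. The cause was not tested for any of these.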

Other observations

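No gene of energy metabolism passed the test between the labels. Of 20 fatty acid and sterol synthesis genes 13 lay below 0 and 7 above (median -0.09), and 4 were below without overlap (Acly, Scd2, Elovl5 and Insig1), against 5.65% of all genes. Without Dox 3 and without Ctrl 5 that count was 7, against 11.8% and 11.3% of all genes. Without any other array it was 4. The summed signal of the 20 was 6620 to 7764 in Dox arrays and 7891 to 9229 in Ctrl arrays, without overlap. Ucp3, a mitochondrial carrier of fast fibres, had levels of 8.57, 8.39, 8.52 and 8.38 in Dox arrays and 7.95, 7.60 and 8.00 in Ctrl arrays (log2 fold change 0.62, adjusted p = 0.173 by limma), while over 25 fasting and PPAR target genes 14 lay above 0 and 11 below. Elovl5, which lengthens unsaturated fatty acids, had 10.24 to 10.38 in Dox arrays and 10.62 to 10.98 in Ctrl arrays (-0.49). G0s2, an inhibitor of fat breakdown picked after its values were seen, had 9.07, 8.97, 9.32 and 9.71 in Dox arrays and 8.49, 8.46 and 7.61 in Ctrl arrays (1.08), with Ctrl 5 the lowest array. Of 36 oxidative phosphorylation genes 13 lay above 0 and 23 below, with a median of -0.02. Odc1, the first enzyme of polyamine synthesis, had 12.57, 12.27, 12.95 and 12.92 in Dox 1, 3, 4 and 5 and 12.11 to 12.34 in Ctrl arrays (0.46), with Dox 3 among the Ctrl arrays.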
